A study of Bos taurus with 15 samples.

Results

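Matrix proteases, cathepsins and their inhibitors were followed in caruncular endometrium from Japanese Black cows around the time when the mother recognizes her conceptus. The members were the probes of a bovine oligonucleotide array that are named as matrix metalloproteinases (MMP), ADAM or ADAMTS proteases, tissue inhibitors of metalloproteinases (TIMP), cathepsins (CTS), serpins (SERPIN) or plasminogen activators, with SERPING1 left out, if 3 or more of the 15 arrays read them well above background. Of 65 probes that matched, 58 passed this filter, out of 13164 probes tested and 15208 on the array. They stood for 50 genes, of which 8 had 2 probes, and 41 of the 58 were well above background in all 15 arrays and 17 in fewer. By family, 40 were proteases, plasminogen activators or the activator receptor, and 17 were of the inhibitor families (7 TIMP and 10 serpin probes). SERPINH1, a serpin counted here, inhibits no protease. The remaining 1 was MTCBP-1, which binds the tail of the membrane protease MMP14. The 7 that did not pass were probes of ADAM1, ADAM2, an unnumbered ADAMTS, MMP13, MMP3, SERPINA7 and SERPINB2. MMP13 and MMP3 each had another probe that passed.

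Labeled cRNA made from the total RNA of 1 cow was hybridized to each one-color array, and there were 4 groups. Non-pregnant cows were on day 15 (NP15, 4 arrays) or day 18 (NP18, 4 arrays) of the estrous cycle. Pregnant cows were on day 15 (P15, 3 arrays) or day 18 (P18, 4 arrays) of gestation. No treatment of the cows other than artificial insemination, whose day was counted as day 1, was named in the sources used here. Their ages were not given there either. Tissue came from the uterine horn on the side of the corpus luteum, and a cow was called pregnant when trophoblast was seen by eye. The study asked how the pregnant endometrium differs from the cyclic endometrium on these days.

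Matrix metalloproteinases and their relatives ADAM and ADAMTS are zinc proteases that cut collagens, proteoglycans and cell surface proteins, and TIMPs block them by filling the active site. The plasminogen activators PLAT and PLAU turn plasminogen into plasmin, which digests fibrin and activates some MMPs, and serpins such as SERPINE2 inhibit the activators. Cathepsins are mostly lysosomal proteases, and CTSL is known as a gene of the uterine epithelium in early ruminant pregnancy, when the conceptus lies against the epithelium without invading deeply.

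What a probe of this array reads is a stretch of 60 bases. The 6 below are shown because results turn on them and because each has a reading frame without a stop codon over its whole length. The pair for TIMP2, an inhibitor of MMP2, was designed on the bovine and on the human sequence, and the capitals mark the 14 bases that both share. Over 43 aligned bases, 36 of the pair were identical. The others are the bovine TIMP1 probe, the MMP14 and ADAM19 probes and the MMP7 probe. On day 18 the TIMP1 probe was lower in pregnant than in non-pregnant cows. The MMP14 and ADAM19 probes fell between the days in pregnant cows, and the signal of the MMP7 probe spread widely among cows.
TIMP2, bovine probe ABR41: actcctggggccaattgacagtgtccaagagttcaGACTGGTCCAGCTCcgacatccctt
TIMP2, human probe ABR7091: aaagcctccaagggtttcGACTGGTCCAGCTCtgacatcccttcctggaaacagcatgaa
TIMP1, probe ABR42: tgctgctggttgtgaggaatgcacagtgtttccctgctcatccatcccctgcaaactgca
MMP14, probe ABR190: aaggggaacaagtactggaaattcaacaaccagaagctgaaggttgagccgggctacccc
ADAM19, probe ABR5729: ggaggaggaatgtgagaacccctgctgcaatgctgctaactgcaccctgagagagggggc
MMP7, probe ABR1464: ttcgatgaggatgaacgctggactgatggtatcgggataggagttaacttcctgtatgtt

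Signals are given in array medians, that is, as multiples of the median processed intensity of the same array, and levels of different probes are not comparable with one another. The median intensity of an array was from 315 to 838, and 65.6 to 88.3% of its probes were well above background, with the lowest shares in P18. Each of the 9 slides and 6 scan days held cows of a single group, so that group and scan day cannot be told apart. The summed signal of 11 trophoblast marker genes was 151, 93.4 and 670 array medians in P18 replicates 2, 3 and 4 but 1.23 in replicate 1, inside the range of NP18 (1.22 to 2.66). NP18 replicate 4 was the highest of its group in 30 members. In such bulk tissue, fewer cells of a type and less RNA per cell cannot be told apart.

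A member was called at an adjusted p below 0.05 over all 13164 probes (limma) and a fold change over 2. Between pregnant and non-pregnant cows, 1 member was called on day 15 (0.798% of all probes were called) and 5 on day 18 (5.75%). The pregnancy effects of the 2 days differed for 4 members (2.72%). From day 15 to day 18, 10 members were called in non-pregnant cows (7.16%) and 9 in pregnant cows (11.9%). Members were called in 8.62% on day 18, 6.9% for the difference of the days, 17.2% in non-pregnant and 15.5% in pregnant cows. By direction, the day-15 call was a fall (0.448% of all probes were called lower), day 18 gave 2 rises (3.65%) and 3 falls (2.1%), and the difference of the days gave 2 above 0 (2.07%) and 2 below (0.653%). Non-pregnant cows gave 6 rises (2.89%) and 4 falls (4.26%) between days, and pregnant cows 5 rises (7.58%) and 4 falls (4.31%). After scaling by the 75th percentile of the array, the calls were 1 rise on day 15, 1 rise and 4 falls on day 18, 3 rises and 4 falls in non-pregnant cows and 2 rises and 9 falls in pregnant cows. Over all probes, this scaling called 0.699, 5.51, 7.6 and 12.5% in these comparisons, in that order. The groups did not overlap for 10 members on day 15 (15.6% of all probes), 13 on day 18 (16.3%), 7 between days in non-pregnant cows (13.1%) and 19 in pregnant cows (42.9%). The 29 calls came from 18 probes of 16 genes. The comparisons share groups, so that 1 group can move several of them.

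The median log2 fold change over the 58 members was -0.16 on day 15 and -0.25 on day 18, against -0.06 and 0.07 over all probes. It was 0.04 between days in non-pregnant cows and -0.07 in pregnant cows, against 0.02 and 0.12 over all probes. Division by the 75th percentile of the array instead of the median moved the median of all probes to 0.04 and 0.00 on days 15 and 18, to -0.10 between days in non-pregnant cows and to -0.18 in pregnant cows. Of 25 calls between 2 groups, 21 had groups that did not overlap, and an exact two-sided permutation test reached the smallest p that 3 or 4 cows per group allow (0.0286) in 17. When scan day entered limma as a random block, no member was called in any of the 5 comparisons. Over all 13164 probes, 0, 49, 0, 54 and 0 were called, in the order given above. An unadjusted p under 0.05 was reached by 7, 6, 5, 14 and 9 members, against 692, 888, 844, 1732 and 1726 of all probes. Without any 1 array, 5 of the 29 calls always held: CTSD, MMP2, MMP9 and TIMP3 between days in non-pregnant cows, and MMP24 in pregnant cows, whose P18 signals were not well above background. Scaling by the 75th percentile ended 9 calls, those of CTSD on day 15, CTSL on day 18, the human MMP2 probe in the difference of the days, MMP16, TIMP1 and the human TIMP3 probe between days in non-pregnant cows, and CTSL, CTSS and MMP24 in pregnant cows. All 29 kept their direction when single arrays were left out, which was fixed in advance for the 21 whose groups did not overlap.

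**Figure D1:**
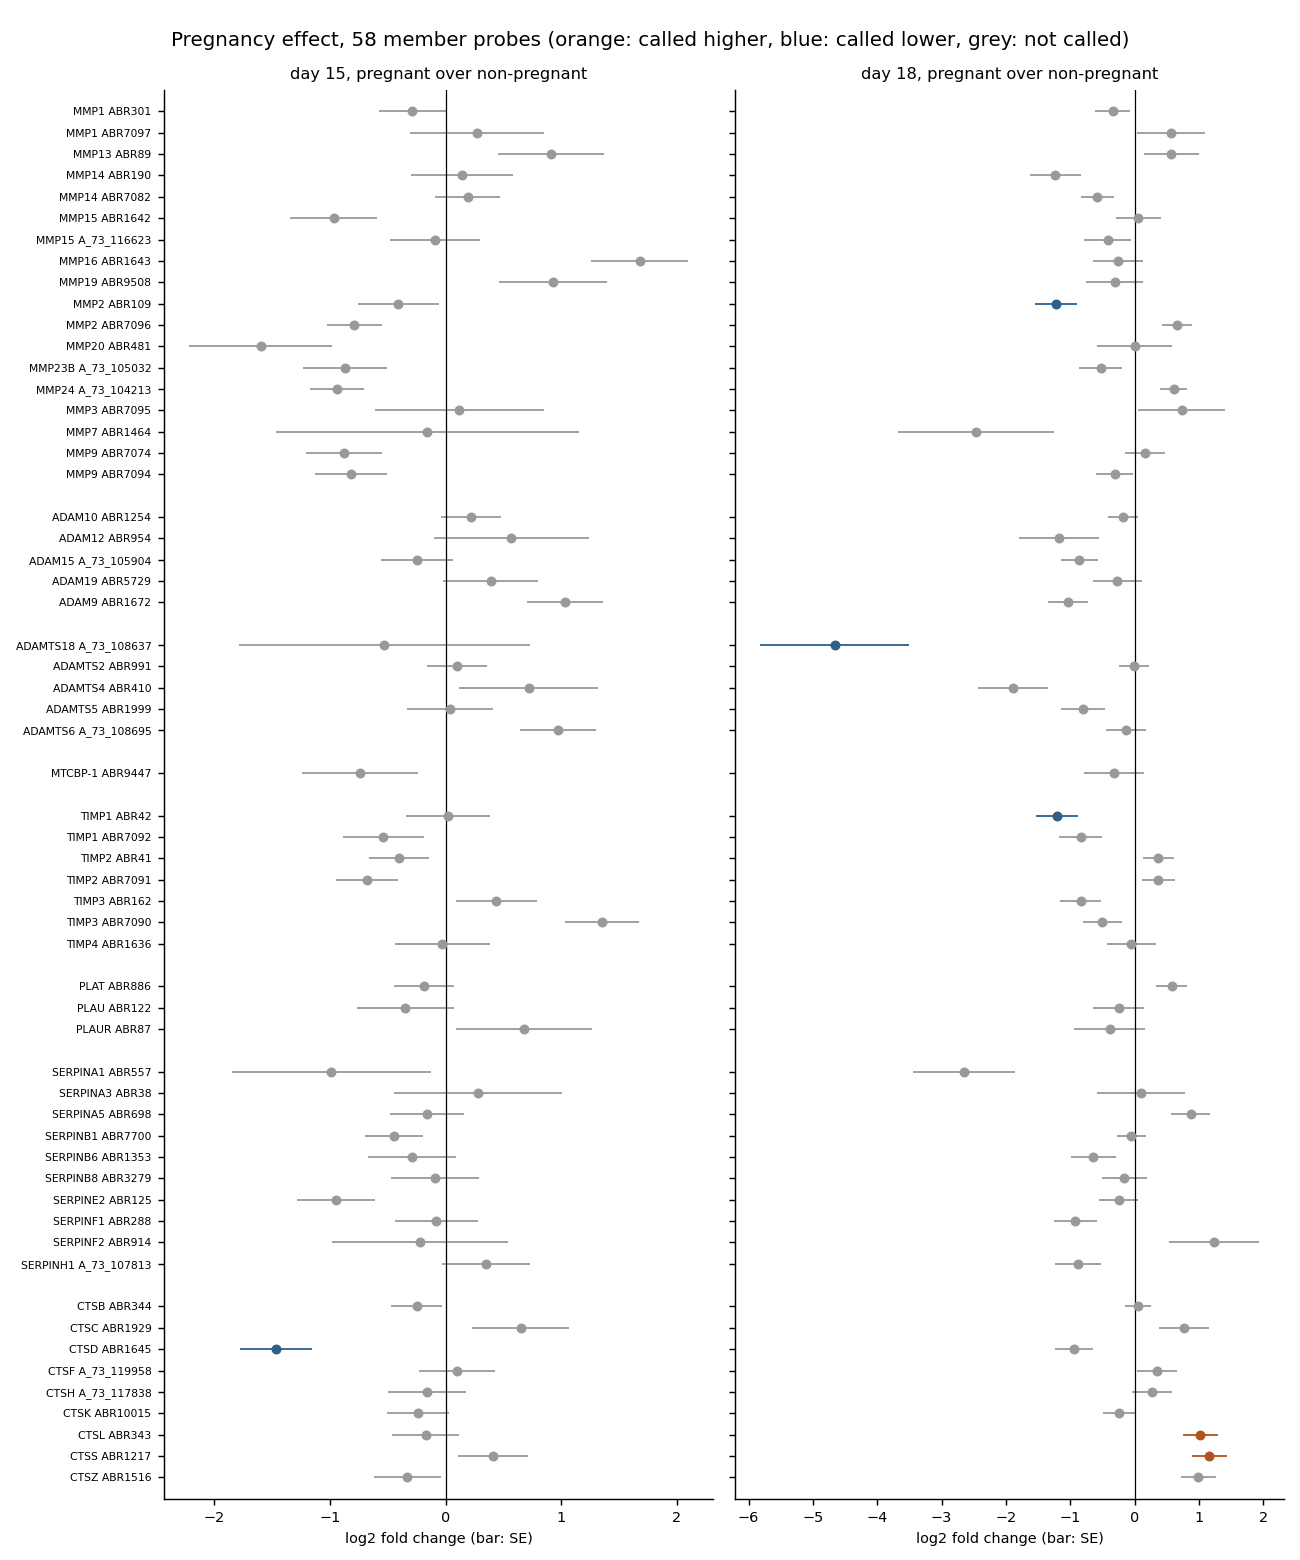
Pregnancy effect as a log2 fold change, positive where pregnant cows were higher (x axis), for each of the 58 member probes (y axis, by family) on day 15 and day 18, with the SE of the limma fit as bars. On day 15 only CTSD is colored as called; on day 18 CTSL and CTSS lie to the right, and ADAMTS18, MMP2 and TIMP1 to the left, of zero.

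The gelatinase MMP2, which digests denatured collagen and basement membrane collagen, fell in pregnant cows of day 18 with 1 of its 2 probes. Its bovine probe had a signal of 2.89, 4.27, 1.69 and 1.83 array medians in NP15, of 1.51, 2.41 and 1.80 in P15, of 2.23, 0.934, 1.81 and 1.91 in NP18, and of 0.661, 0.791, 0.556 and 0.838 in P18. Every P18 cow lay below every cow of the other 3 groups. The log2 fold change was -1.22 on day 18 (SE 0.33, limma adjusted p = 0.0384) and -1.41 between days in pregnant cows (SE 0.35, adjusted p = 0.017). With single arrays left out, it ran from -1.49 to -1.07 on day 18, where the call ended without any of 9 arrays, and from -1.57 to -1.23 in pregnant cows, where it ended without P15 replicate 2 or 3.

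The other MMP2 probe, designed on the human sequence, did not follow. It had signals of 0.319, 0.329, 0.323 and 0.209 in NP15, 0.135, 0.228 and 0.153 in P15, 0.0957, 0.0935, 0.1195 and 0.0902 in NP18, and 0.127, 0.167, 0.150 and 0.190 in P18. It was highest in NP15 and lowest in NP18, and it was well above background in 3 of 4 NP18 and 2 of 4 P18 arrays. Its log2 fold change was -1.55 between days in non-pregnant cows (SE 0.23, adjusted p = 0.00119), and the pregnancy effect differed between the days by 1.45 (SE 0.33, adjusted p = 0.0335). The former call held without any 1 array, and the latter ended without any of 8 arrays (1.30 to 1.67). On day 18 it gave 0.66 (adjusted p = 0.0924), opposite in sign to the bovine probe, and all 4 P18 cows lay above all NP18 cows.

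MMP14 is the membrane protease that activates pro-MMP2 together with TIMP2. Its bovine probe had signals of 0.823, 0.753 and 0.763 in P15 and of 0.304, 0.230, 0.292 and 0.285 in P18, with 0.586, 0.768, 1.895 and 0.291 in NP15 and 0.610, 0.545, 0.594 and 0.892 in NP18. The P18 cows lay below those of P15 and NP18, and 1 NP15 cow was as low as they were. It fell by 1.5 between days in pregnant cows (SE 0.44, adjusted p = 0.0321), and gave -1.23 on day 18 (adjusted p = 0.0825). Over left-out arrays the fall in pregnant cows was from -1.54 to -1.41, and its call ended without any of the 3 P15 arrays or P18 replicates 2, 3 or 4. The second MMP14 probe gave -0.61 (adjusted p = 0.153) and -0.58 (adjusted p = 0.192) in these comparisons.

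MMP9, the other gelatinase, fell from day 15 to day 18 in non-pregnant cows. Its bovine probe had signals of 0.482, 0.524, 0.264 and 0.204 in NP15 and of 0.110, 0.136, 0.1495 and 0.1545 in NP18, with 0.157 to 0.237 in P15 and 0.106 to 0.196 in P18. The NP15 cows all lay above the NP18 cows. The log2 fold change was -1.32 (SE 0.31, adjusted p = 0.0161), and the other MMP9 probe, identical at 50 of 60 bases, gave -0.55 (adjusted p = 0.222).

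MMP24 and MMP16, of the membrane-bound MMPs, were called on signals near background. MMP24 passed the test as higher on day 18 than on day 15 in pregnant cows (adjusted p = 0.00845), with 0.0241, 0.0235 and 0.0266 in P15 and 0.0614, 0.0596, 0.0377 and 0.0545 in P18, but none of the 4 P18 arrays was well above background and no bound above 1 could be given, so that neither a rise nor its size can be read. The same holds for its call in the difference of the pregnancy effects (adjusted p = 0.02), which ended without P15 replicate 1 or 2. MMP16 was called higher in NP18 than in NP15 (1.37, adjusted p = 0.0384) and was well above background in no NP15 array and in 1 of 4 NP18 arrays. 8 left-out arrays, among them all of NP18 but replicate 1, ended this call, with values from 1.08 to 1.67. NP18 was at least 1.2-fold higher by the bound that sets the dim arrays at their lowest signal well above background, and without NP18 replicate 4, the array above background, there is no bound. With normexp background correction this difference turned to -0.13 (adjusted p = 0.584).

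None of the other 12 MMP probes was called in any comparison. Between days in non-pregnant cows MMP19 gave 1.35 (adjusted p = 0.0613) without overlap, with 0.327, 0.316, 0.300 and 0.103 in NP15 and 0.541, 0.396, 0.477 and 1.335 in NP18. The collagenase MMP1 had signals from 0.0709 to 0.183 with its bovine probe and gave -0.34 (adjusted p = 0.476) on day 18. MMP13 and MMP3 were not well above background in any array of day 18. MMP15 gave -0.42 (adjusted p = 0.506) on day 18 with the probe A_73_116623. Of the 18 MMP probes, 11 were lower on day 15 and 10 on day 18. With normexp these counts were 15 and 8. Scaling by the 75th percentile gave 10 and 12, and quantile normalization 11 and 12.

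Among the ADAM proteases, which shed the outer parts of membrane proteins, ADAM9 showed opposite pregnancy effects on the 2 days. Its signal was 0.660, 0.620, 1.21 and 0.538 in NP15, 1.53, 1.28 and 1.62 in P15, 1.04, 1.09, 1.44 and 1.66 in NP18, and 0.975, 0.595, 0.371 and 0.721 in P18. Every P15 cow was above every NP15 cow, and every P18 cow was below every NP18 cow. The log2 fold change was 1.03 on day 15 (SE 0.33, adjusted p = 0.179) and -1.03 on day 18 (SE 0.31, adjusted p = 0.0598), neither of them called, and the difference between them was -2.07 (SE 0.46, adjusted p = 0.0297). ADAM9 fell by 1.23 between days in pregnant cows (adjusted p = 0.0244). The difference ran from -2.32 to -1.81 over left-out arrays and its call ended without any P15 array, NP15 replicate 2, NP18 replicate 3 or P18 replicate 2. The fall ran from -1.44 to -0.98 and lost its call without any P15 array or P18 replicate 2 or 3.

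ADAM19 fell by 1.29 between days in pregnant cows (SE 0.41, adjusted p = 0.0437). Its signals were 0.244, 0.192 and 0.277 in P15 and 0.161, 0.0706, 0.0822 and 0.0908 in P18, where 1 of 4 arrays was well above background. The groups did not overlap, but the value was -0.49 with normexp (adjusted p = 0.157), and from -1.54 to -1.14 over left-out arrays, of which 9 ended the call. ADAM10, the main shedding enzyme of many cells, had 0.22 and -0.18 on days 15 and 18 (adjusted p = 0.739 and 0.684). ADAM12 ranged from 0.204 in P18 to 4.24 in P15 and gave -1.17 on day 18 (adjusted p = 0.273).

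The ADAMTS proteases cut proteoglycans and procollagens. ADAMTS18 had signals of 0.02805, 0.0207, 0.0367 and 0.0217 in P18, none well above background and the same in each array as those of ADAMTS2, against 0.176, 0.429, 0.258 and 9.60 in NP18. All 4 NP18 arrays lay above P18, and 1 of them was far above the other 3. On day 18 ADAMTS18 was at least 5.14-fold lower in pregnant cows (adjusted p = 0.0282), and its call ended without NP18 replicate 4 or P18 replicates 2, 3 or 4, and with normexp background correction (adjusted p = 0.0508). Without NP18 replicate 4 the bound was 2.1-fold. It was called higher in NP18 than in NP15 (3.84, adjusted p = 0.0483), where NP15 had 0.00938, 0.0519, 0.0374 and 0.247 and the groups overlapped. This value was 2.55 without NP18 replicate 4, and 12 of the 15 arrays ended the call, as did normexp (adjusted p = 0.0849).

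The aggrecan-cutting ADAMTS4 had 4.16, 1.44, 4.28 and 18.45 in NP18 and 0.983, 1.54, 2.05 and 0.8105 in P18. It gave -1.89 on day 18 (adjusted p = 0.0548) with overlapping groups. ADAMTS6 had 0.226 to 0.285 in NP15 and 0.442 to 0.548 in P15, without overlap, and gave 0.97 (adjusted p = 0.198). ADAMTS5 gave -0.80 on day 18 (adjusted p = 0.17). All 5 ADAM and all 5 ADAMTS probes had log2 fold changes below 0 on day 18, of which 1 was called. Some of these rest on signals near background. ADAMTS2 (-0.01) was not well above background in any array of day 18, and ADAM15 and ADAMTS18 not in any P18 array. With normexp 1 ADAM and 2 ADAMTS probes lay above 0.

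TIMP1, which inhibits most secreted MMPs, was high in 3 NP18 cows. Its bovine probe had 19.99, 13.4, 12.4 and 12.1 in NP15, 13.25, 12.3 and 18.2 in P15, 14.9, 27.8, 41.3 and 54.8 in NP18, and 14.6, 14.03, 13.6 and 11.8 in P18. NP18 replicate 1 lay just above P18 and within the range of day 15. In pregnant cows TIMP1 gave -0.09 between days (adjusted p = 0.883). On day 18 it was lower in pregnant than in non-pregnant cows by 1.21 (SE 0.33, adjusted p = 0.0402). Between days in non-pregnant cows it rose by 1.13 (SE 0.33, adjusted p = 0.0406). On day 18, 11 of the 15 left-out arrays ended the call, with values from -1.56 (without NP18 replicate 1) to -0.94 (without NP18 replicate 4), and between days 12 did, with 0.86 to 1.49. The other TIMP1 probe gave -0.84 (adjusted p = 0.137) and 0.12 (adjusted p = 0.843).

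TIMP3, the inhibitor that binds to the matrix itself, rose between days in non-pregnant cows with both of its probes. The bovine probe had 9.04, 6.53, 10.8 and 5.69 in NP15, 7.31, 12.1 and 13.1 in P15, 12.7, 22.2, 24.6 and 33.2 in NP18, and 10.2, 12.7, 17.3 and 9.80 in P18. The NP15 and NP18 cows did not overlap, and the log2 fold change was 1.5 (SE 0.32, adjusted p = 0.0112), or 1.1 (SE 0.30, adjusted p = 0.0304) with the human probe, whose call ended without NP15 replicate 1, 2 or 4 or NP18 replicate 3 or 4 (0.94 to 1.27). That probe had 37.2, 46.8, 66.9 and 44.4 in NP15, 94.2, 134 and 142 in P15, 96.4, 72.0, 111 and 143 in NP18, and 71.0, 68.4, 118 and 47.5 in P18, with every P15 cow above every NP15 cow. Its pregnancy effect was 1.35 on day 15 (adjusted p = 0.0637) and -0.50 on day 18 (adjusted p = 0.325), and the difference between these was -1.85 (SE 0.44, adjusted p = 0.0377). The difference kept its sign over all left-out arrays (-2.09 to -1.65), and 11 of them ended its call. The bovine probe gave -1.28 for the same difference (adjusted p = 0.153).

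TIMP2 was highest in 3 of the 4 NP15 cows. The bovine probe read 805, 644, 382 and 843 in NP15, 396, 547 and 526 in P15, 351, 389, 441 and 328 in NP18, and 487.5, 457, 470 and 533 in P18. All P18 cows lay above all NP18 cows, at a log2 fold change of 0.37 (adjusted p = 0.365) that did not pass the test. Between days in non-pregnant cows it gave -0.77 (adjusted p = 0.0534) and the human probe -0.83 (adjusted p = 0.0447), under the fold limit. TIMP4 had from 0.0853 to 0.339 over all cows and gave -0.05 on day 18 (adjusted p = 0.957).

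**Figure D2:**
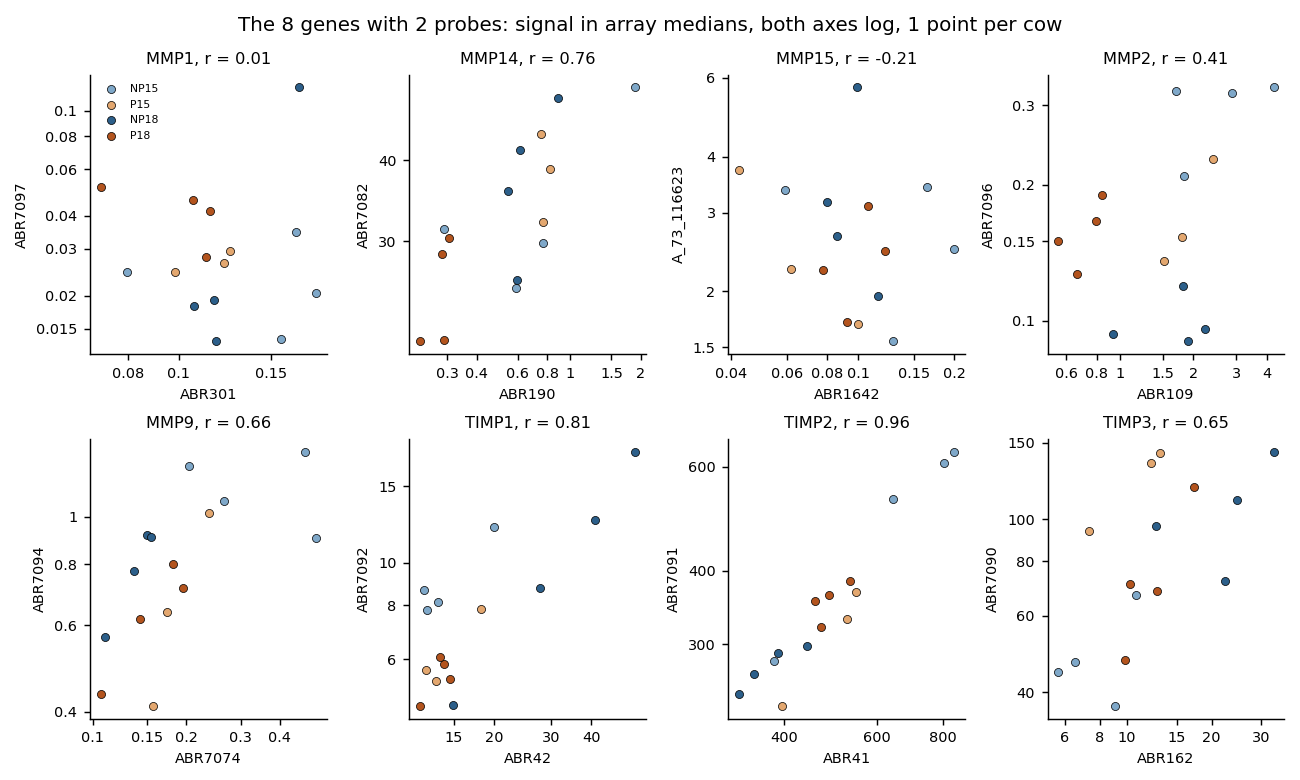
Signals of both probes of the 8 genes with 2 probes, in array medians on log axes, with 1 point per cow colored by group and Pearson's r of log2 values over the 15 cows in each title. The points of TIMP2 (r = 0.96) and TIMP1 (0.81) lie along a line, and those of MMP1 (0.01) and MMP15 (-0.21) do not.

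The 8 genes with 2 probes show how far a single probe speaks for its gene. The 15 cows are shared by both probes, so r is a description. It was 0.96 for TIMP2, 0.81 for TIMP1, 0.76 for MMP14, 0.66 for MMP9, 0.65 for TIMP3, 0.41 for MMP2, 0.01 for MMP1 and -0.21 for MMP15. Over the 4 comparisons between 2 groups, the probes had the same sign in 19 of 32 cases, with 0 of 4 for MMP1, 1 of 4 for MMP15 and 3 of 4 for each of the others. Of the 8 pairs, 7 set a bovine against a human sequence, and what a human sequence binds in bovine RNA was not tested.

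None of the activators was called. PLAT, tissue plasminogen activator, had 218, 168, 143 and 162 in NP15, 113, 209 and 141 in P15, 153, 190, 215 and 149 in NP18, and 215, 251, 348 and 246 in P18. The P18 cows all lay above the P15 cows, with a log2 fold change of 0.80 (SE 0.26, adjusted p = 0.0462) under the fold limit, and it gave 0.58 (adjusted p = 0.155) on day 18. PLAU, the urokinase type, gave 0.94 (adjusted p = 0.137) between days in pregnant cows without overlap of the groups. Its receptor PLAUR had from 0.300 to 6.46 over all cows and gave -0.39 on day 18 (adjusted p = 0.711). SERPINE2, which also inhibits thrombin, had 51.7, 59.1, 74.0 and 146 in NP15 and 33.7, 59.5 and 30.4 in P15, and gave -0.95 on day 15 (adjusted p = 0.21).

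None of the serpins was called either. SERPINA1, the inhibitor of neutrophil elastase, had 0.0718, 0.242, 0.188 and 1.06 in NP18 and was not well above background in any P18 array, at least 1.90-fold lower there (adjusted p = 0.0598) or, without NP18 replicate 4, at least 1.16-fold. SERPINH1, a collagen chaperone with a serpin fold that inhibits no protease, had 64.65, 64.3, 75.9 and 214 in NP18 and 51.7, 52.6, 53.0 and 40.5 in P18, without overlap (-0.88, adjusted p = 0.146). SERPINF1, known to block vessel growth, had 25.5, 15.2, 12.3 and 20.8 in NP18 and 7.22, 11.2, 9.66 and 9.91 in P18, again without overlap (-0.92, adjusted p = 0.115). Of 10 serpin probes, 7 were lower in pregnant cows on day 18.

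**Figure D3:**
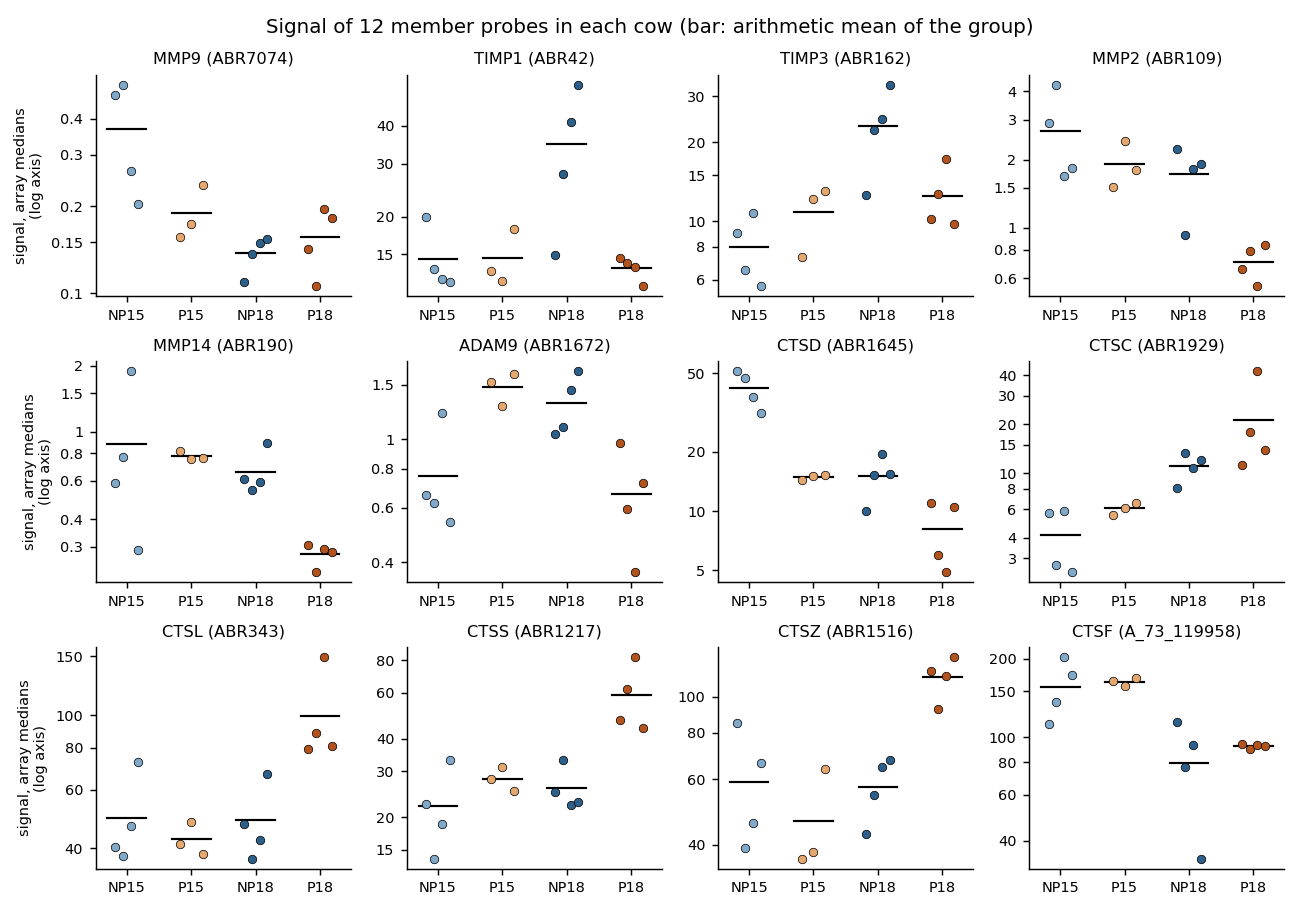
Signal in array medians (y axis, log scale) of 12 member probes in each cow of the 4 groups (x axis), with the arithmetic mean of the group as a bar. The P18 cows stand highest for CTSL, CTSS and CTSZ and lowest for MMP2, and the NP15 cows highest for CTSD.

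The cathepsins went in 2 directions. CTSL, CTSS and CTSZ were high in pregnant cows of day 18, and CTSD was high in non-pregnant cows of day 15. CTSL, a cysteine protease of lysosomes whose probe's accession now belongs to the related CTSV in RefSeq, had 40.4, 38.1, 46.8 and 72.5 in NP15, 41.4, 47.9 and 38.6 in P15, 47.4, 37.3, 42.5 and 66.8 in NP18, and 79.4, 88.4, 149 and 80.8 in P18. Every P18 cow was above every other cow. CTSL rose by 1.02 on day 18 of pregnancy (SE 0.27, adjusted p = 0.0363) and by 1.18 between days in pregnant cows (SE 0.29, adjusted p = 0.0162).

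CTSS, which trims the invariant chain of MHC class II in antigen-presenting cells, had 22.5, 13.9, 18.9 and 33.2 in NP15, 28.0, 31.1 and 25.2 in P15, 25.05, 33.15, 22.4 and 22.9 in NP18, and 47.1, 62.1, 81.9 and 43.8 in P18. Again all P18 cows lay above the cows of the other groups. The log2 fold change was 1.16 on day 18 (SE 0.27, adjusted p = 0.0217) and 1.02 between days in pregnant cows (SE 0.30, adjusted p = 0.031). CTSZ, a carboxypeptidase, had 84.9, 39.3, 45.8 and 66.5 in NP15, 36.7, 38.3 and 63.8 in P15, 42.8, 54.5, 64.8 and 67.4 in NP18, and 117.7, 92.7, 113.5 and 127.6 in P18. It rose by 1.32 between days in pregnant cows (SE 0.29, adjusted p = 0.00992) and gave 0.99 on day 18 (SE 0.27, adjusted p = 0.0413), 1.98-fold and just under the fold limit.

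Other scalings moved these calls. After scaling by the 75th percentile, CTSL gave 0.94 on day 18 and 0.88 between days in pregnant cows (adjusted p = 0.0255 and 0.0265), both under the fold limit, and with quantile normalization 0.89 and 0.74. CTSS between days in pregnant cows gave 0.73 (adjusted p = 0.0666) and 0.58 (adjusted p = 0.126), so that this call ended, and CTSZ gave 1.03 and 0.89, the latter under the fold limit.

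P18 replicate 3 was the highest cow for CTSL, CTSS and CTSC. Without it, the values of day 18 were 0.81 for CTSL (adjusted p = 0.112) and 0.98 for CTSS (adjusted p = 0.0737), and both calls ended. The call of CTSL also ended without P15 replicate 1 or 3, NP18 replicate 2 or 3 or P18 replicate 2, and that of CTSS without NP18 replicate 3 or 4 or P18 replicate 2. Between days in pregnant cows, the calls of CTSL, CTSS and CTSZ ended without P15 replicate 1, and those of CTSL and CTSS also without P15 replicate 3 or P18 replicate 3, and that of CTSS without P15 replicate 2 or P18 replicate 2. Without P18 replicate 3 the values were 0.96 for CTSL and 0.85 for CTSS, and without P15 replicate 1 CTSZ gave 1.18.

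Most leukocyte and trophoblast markers were also higher in pregnant than in non-pregnant cows on day 18. Of 11 leukocyte marker genes, 10 had a log2 fold change above 0 on day 18 and 1, the integrin ITGB2, was called (median 0.44). Their summed signal was 15.2 to 25.6 in P18 and highest in replicate 3, against 9.82 to 13.9 in NP18, 11.8 to 15.1 in P15 and 9.83 to 16.8 in NP15. Of 11 trophoblast genes, 7 were called higher and 1 lower (median 5.84). In P18 replicate 1, where these summed to 1.23, CTSL stood at 79.4, CTSS at 47.1 and CTSZ at 117.7, all above every NP18 cow, and without this array the log2 fold changes of day 18 were 1.11, 1.25 and 0.97. The median of 7 epithelial marker genes was -0.36 on day 18 and 0.92 between days in pregnant cows. These genes summed to 103 to 137 in P15 and 226 to 324 in P18, with 160 to 286 in NP15 and 119 to 354 in NP18. The parts of leukocytes, of trophoblast and of epithelium in the cathepsin values were not tested.

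CTSD, an aspartic protease of lysosomes, was the only member called on day 15. It had 51.2, 47.05, 37.7 and 31.4 in NP15, 14.4, 15.1 and 15.2 in P15, 10.04, 15.3, 19.6 and 15.4 in NP18, and 11.04, 5.98, 4.90 and 10.53 in P18. NP15 stood apart from all other cows. CTSD was 2.76-fold lower in pregnant cows on day 15 (-1.47, SE 0.31, adjusted p = 0.043) and fell by 1.49 between days in non-pregnant cows (SE 0.29, adjusted p = 0.0069). In pregnant cows it gave -0.96 between days (adjusted p = 0.0478), under the fold limit. The call of day 15 was lost after scaling by the 75th percentile (-1.37, adjusted p = 0.0792), with quantile normalization (adjusted p = 0.0698) and in the authors' log2 values (adjusted p = 0.0784). All 7 epithelial marker genes also had log2 fold changes below 0 on day 15 (median -0.78), none of them called, and they summed to 160 to 286 in NP15 and 103 to 137 in P15, without overlap. On day 18, where no cow reached the CTSD signals of NP15, the epithelial sums were 119 to 354 in NP18 and 226 to 324 in P18. The part of epithelium in the lower CTSD signal of pregnant cows on day 15 was not tested. The value of day 15 was from -1.59 to -1.36 over left-out arrays, of which 10 ended the call, including each P15 array, and that between days in non-pregnant cows was from -1.62 to -1.30 and always called.

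CTSC, which activates the serine proteases of leukocyte granules, was higher on day 18 than on day 15 in both states. It had 5.72, 2.71, 5.87 and 2.46 in NP15, 5.55, 6.13 and 6.54 in P15, 8.05, 13.3, 10.7 and 12.1 in NP18, and 11.2, 17.85, 42.5 and 13.8 in P18. The days did not overlap, and CTSC rose by 1.49 in non-pregnant cows (SE 0.39, adjusted p = 0.0271) and by 1.61 in pregnant cows (SE 0.42, adjusted p = 0.0205). The former call ended without any of 5 arrays (NP15 replicates 2 and 4 and NP18 replicates 2, 3 and 4), with 1.27 to 1.69, and the latter without any P15 array, with 1.21 to 1.85.

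CTSF, another cysteine cathepsin, fell by 1.06 between days in non-pregnant cows (SE 0.31, adjusted p = 0.0406), from 112, 136, 202 and 174 in NP15 to 114, 76.8, 93.5 and 34.2 in NP18. The groups overlapped in 1 cow, and the value was -0.70 without NP18 replicate 4 and from -1.28 over the left-out arrays, of which 11 ended the call. CTSB gave -0.25 and 0.05 on days 15 and 18 (adjusted p = 0.63 and 0.916), with signals from 2.38 to 4.43 over all cows. CTSH (adjusted p = 0.874 and 0.642) and the collagen-cutting CTSK (adjusted p = 0.736 and 0.605) were not called either. Of the 9 cathepsins, 7 had log2 fold changes above 0 on day 18, or 6 with the other scalings.

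**Figure D4:**
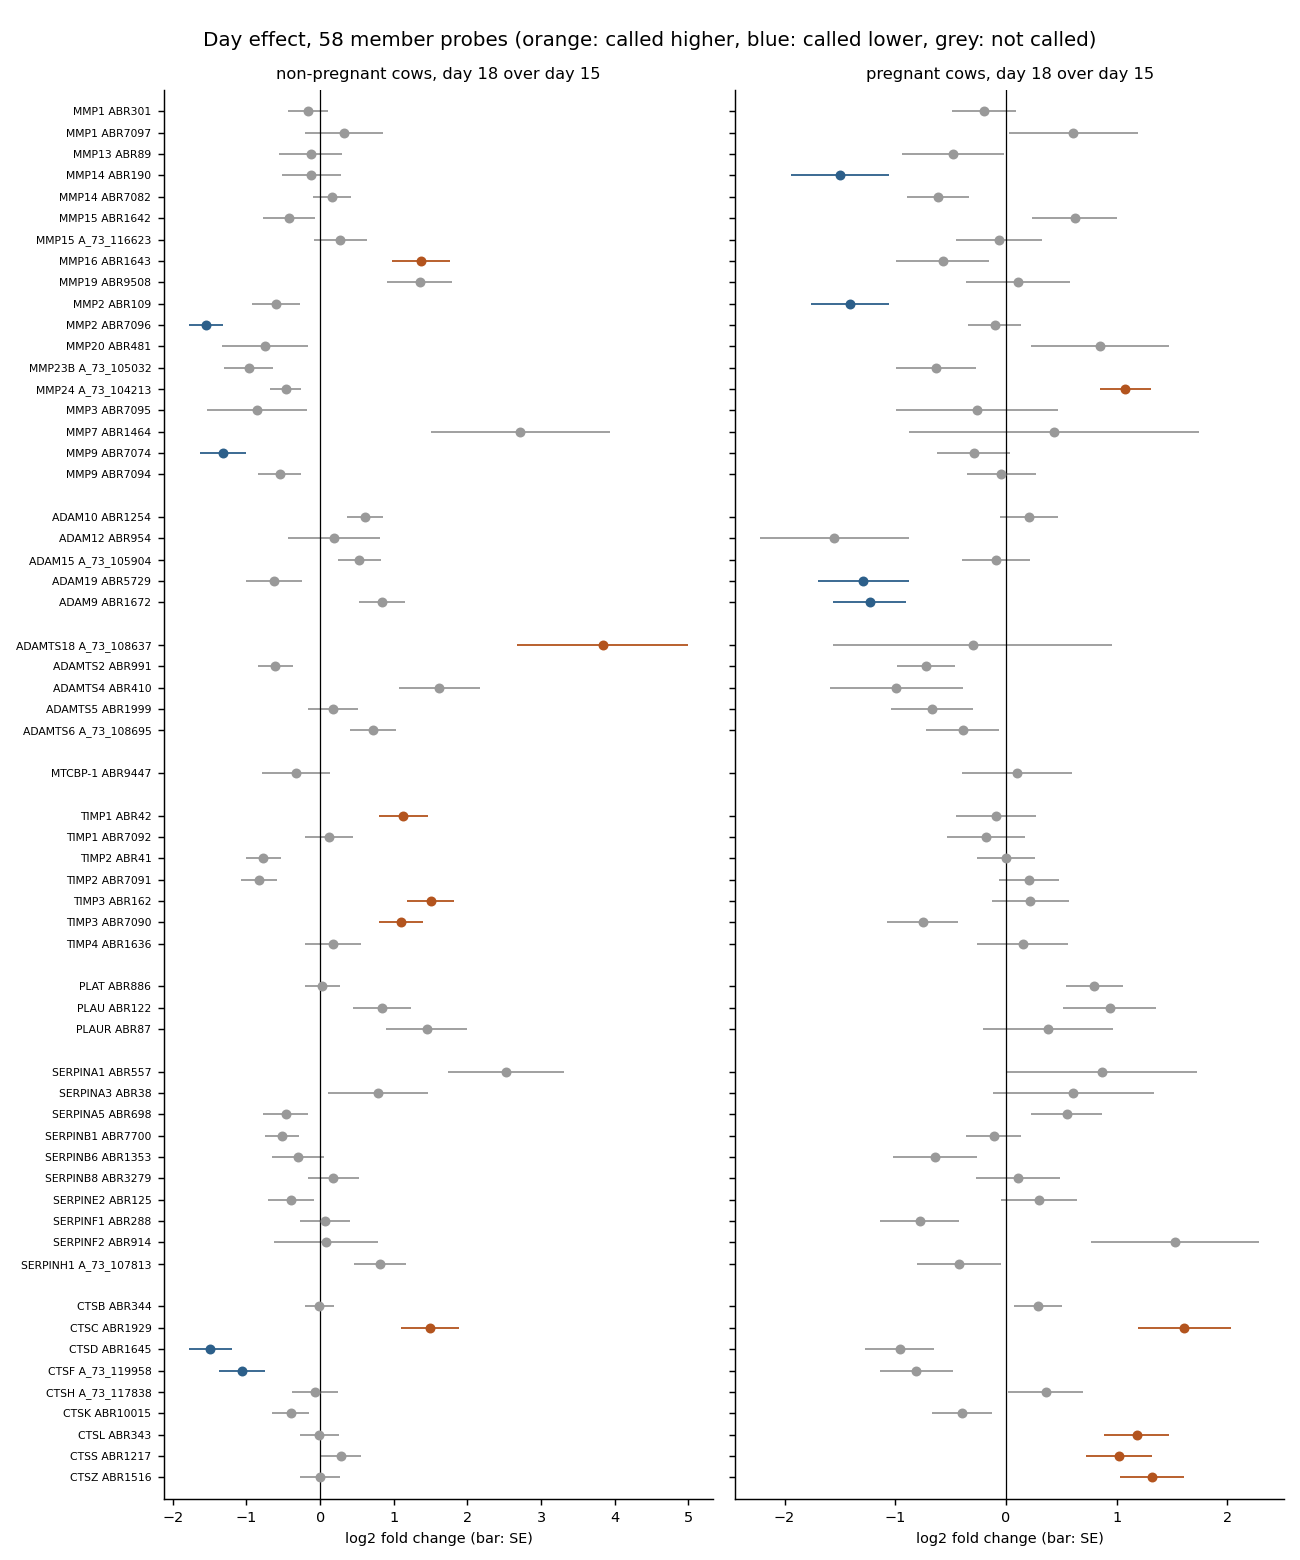
Log2 fold change of day 18 over day 15 (x axis) for the 58 member probes (y axis, by family) in non-pregnant and in pregnant cows, with the SE of the limma fit as bars. TIMP1 and both TIMP3 probes are called higher only in the panel of non-pregnant cows and CTSL, CTSS and CTSZ only in that of pregnant cows; CTSC is called in both.

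Between the days, 6 members were called higher and 4 lower in non-pregnant cows, and 5 higher and 4 lower in pregnant cows. CTSC was the only probe called in both states. Of the 17 TIMP and serpin probes, 3 were called higher in non-pregnant cows, TIMP1 and 2 probes of TIMP3 (2.89% of all probes were called higher). None of the 17 was called higher in pregnant cows. Of the 28 metalloproteases, 4 were called lower in pregnant cows (MMP2, MMP14, ADAM9 and ADAM19; 4.31% of all probes were called lower) and 1 higher, MMP24. Whether the day effect differed between the states is the same test as the difference of the pregnancy effects, which called the human probes of TIMP3 and MMP2, ADAM9 and MMP24 and did not call CTSL (adjusted p = 0.116), CTSS (0.328), CTSZ (0.0835) or TIMP1 (0.182).

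Of 26 other genes of proteolysis and its control that were tested, such as calpains, cystatins and membrane serine proteases, none was called on day 15 and 1 on day 18, CAPN6 (1.5, adjusted p = 0.0455). Between days, CST6, LGMN and CAPN6 were lower in NP18 than in NP15 (-1.09, -1.4 and -1.53, adjusted p = 0.0189, 0.0267 and 0.0331). LGMN processes cathepsins and CST6 inhibits it. In pregnant cows CSTB, an inhibitor of cysteine cathepsins, rose by 1.31 (adjusted p = 0.0267) and TMPRSS2 by 2.54 (adjusted p = 0.0351). The difference of the pregnancy effects was called for none of the 26, with LGMN at 1.71 (adjusted p = 0.0948) and CST3 at 0.98 (adjusted p = 0.0659). The median of these genes was -0.32 and -0.23 on days 15 and 18.

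Markers of the tissue's own cells also moved on day 18. Of 5 smooth muscle genes, 3 were called lower and all 5 had a log2 fold change below 0 (median -2.13), and they summed to 42.0 to 210 in NP18 and 13.0 to 39.0 in P18, without overlap, with 44.3 to 95.3 in NP15 and 47.3 to 66.8 in P15. Of 7 endothelial genes, 2 were called lower (median -0.38), with sums of 19.8 to 40.4 in NP18 and 18.6 to 32.8 in P18. Of 6 stromal genes, 1 was called lower (COL1A1, median -0.59), with sums of 372 to 726 and 443 to 545. Of 7 epithelial genes none was called (median -0.36), with sums of 119 to 354 and 226 to 324. The part of these cells in the lower MMP2, TIMP1 and ADAMTS18 signals of pregnant cows on day 18 was not tested. Of the steroid receptors, ESR1 was called lower on day 18 (adjusted p = 0.00191), with none of the 4 P18 arrays well above background and a bound of at least 1.04-fold, which fell under 1 without any of 5 arrays, and PGR was not called. In pregnant cows, between the days, 3 of the 5 smooth muscle genes (median -1.4), 2 of the stromal genes (-0.73) and 2 of the endothelial genes (-0.73) were called lower. Of the 11 trophoblast genes, 7 were called higher. Of the 7 epithelial genes, 5 had a log2 fold change above 0 (median 0.92), and 1 was called higher and 1 lower. The epithelial sums were 103 to 137 in P15 and 226 to 324 in P18, without overlap. The part of these cells in the falls of MMP2, MMP14, ADAM9 and ADAM19 was not tested. On day 15 no gene of these lists or of the leukocyte and trophoblast lists was called.

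**Figure D5:**
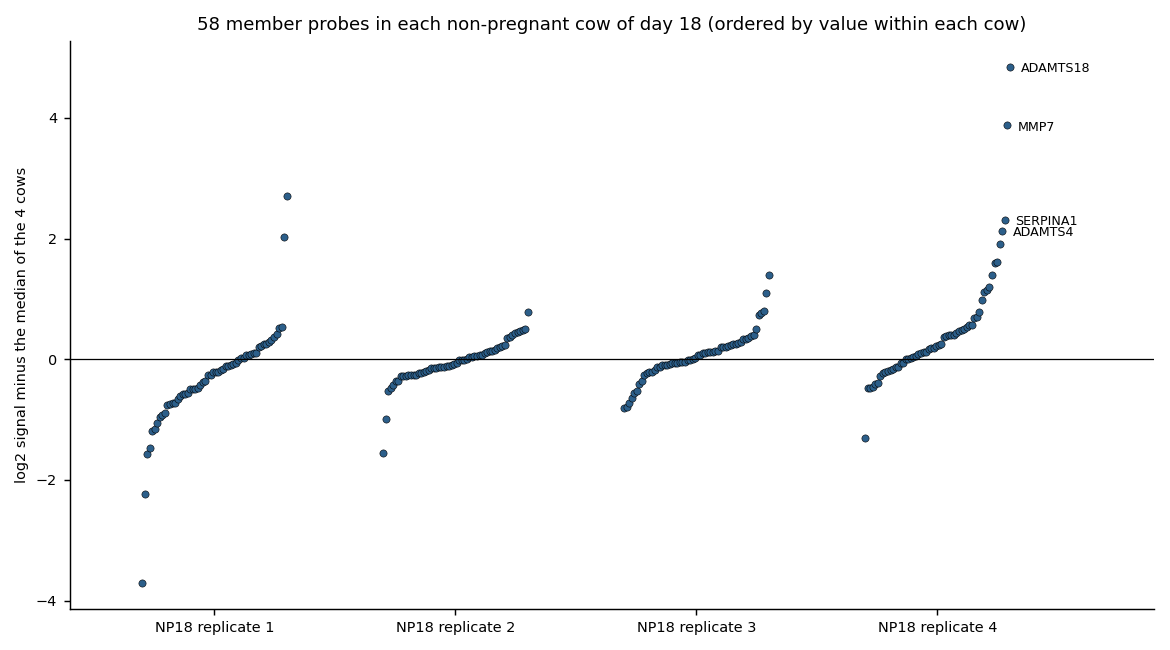
Log2 signal minus the median of the 4 cows (y axis) for the 58 member probes in each NP18 cow (x axis, probes ordered by value within each cow). Replicate 4 has the highest points, ADAMTS18 (9.60 array medians) and MMP7 (58.1), and replicate 1 the lowest.

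The 4 NP18 cows differed widely among themselves in some members. In replicate 4, 30 of the 58 members were the highest of the group (51.7%, against 38.2% of all probes), and 10 were over 2-fold above the next cow (17.2%, against 4.19%). They were ADAMTS18, ADAMTS4, MMP19, MMP20, MMP3, MMP7, PLAU, PLAUR, SERPINA1 and SERPINH1, of which MMP3 was not well above background there. MMP7, a matrilysin of glandular epithelium, had 0.304, 6.82, 2.30 and 58.1 in NP18, and between 0.118 and 1.68 in all other groups. The smooth muscle sum of replicate 4 was 210 and that of ESR1 and PGR, the receptors for estradiol and progesterone, was 27.5, against 42.0 to 118 and 4.76 to 11.1 in the other 3. In NP18 replicate 1, 29 members were the lowest of the group. Without replicate 4, limma called 1 member on day 18 and 4 between days in non-pregnant cows, in place of 5 and 10, and over all probes 546 (4.15%) and 616 (4.68%), in place of 757 and 942.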

How the data were processed

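Cy3-labeled cRNA made from the total RNA of 15 cows had been hybridized to one-color arrays of 60-base probes. As deposited, the scanner tables give each spot a processed intensity on a linear scale, from which the authors' software (Agilent Feature Extraction 9.5, per the file headers) had subtracted a background and removed a trend over the array, without scaling between arrays. A second deposited file holds log2 values that the authors derived from these arrays, which match the intensities scaled to each array's 75th percentile. It served as an alternative. Groups came from the sample labels.

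Each intensity was divided by the array median, control spots were left out and spots flagged as outliers were set aside. No member spot carried such a flag. Log2 values of 13164 probes well above background in at least 3 arrays were tested with limma 3.58.1 (R 4.3.3, lmFit and eBayes on the 4 group means). The Benjamini-Hochberg adjustment ran over all these probes. All p-values called adjusted are from this fit. A call needed an adjusted p under 0.05 and a fold over 2. SEs are those of the fit. Where no array of a group read a probe well above background, the fold is a bound against the lowest signal well above background of each such array. Tables were built with pandas 2.3.3 and numpy 2.4.6 and figures with matplotlib 3.10.9 (Python 3.11.15). One further gene that meets the naming rule is not reported here and is in no count of members. The members, gene lists and tests were chosen with earlier results of these data known. Members were named when called in a comparison, when among the 3 largest rises or falls with an adjusted p under 0.05, or when textbooks name them for uterine matrix turnover, and some further members were chosen after their values were seen. Lists of markers of epithelium, stroma, endothelium, smooth muscle, leukocytes, trophoblast and steroid receptors, and of other protease genes, were described by counts. Gene names are those of the array's design, of which 25 accessions matched RefSeq. Tested on simulated data of 13130 probes, the fit recovered 52 to 64.5% of 200 log2 changes of 1.5 in the 4 comparisons between groups, and 86.5 to 91.5% of changes of 2.5. It made 5 to 12 false calls. The simulated arrays varied independently, without a shared effect of slide or scan day, so these rates may not hold for the data. The number of arrays limits the precision. Nothing in the labels says whether the cows of a group came from separate herds or days, so p-values measure the spread between these cows only.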

Additional observations from a re-analysis of the deposited data

Results flagged for a closer look

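Of 123 groups of 4 cows in 41 of the member probes, 8 held a cow far from the other 3, and chance marks about 1 group in 20. Other members that the text names were not examined for this. ADAMTS5 was 0.814 array medians in NP15 replicate 3, against 0.376 to 0.399 in the others. MMP19 was 0.103 in NP15 replicate 4, against 0.300 to 0.327, and the human MMP2 probe was 0.209 in the same cow, against 0.319 to 0.329. The human MMP1 probe was 0.123 in NP18 replicate 1, against 0.0134 to 0.0193, and the bovine one 0.0709 in P18 replicate 4, against 0.106 to 0.115. PLAU was 6.84 in P18 replicate 3, against 4.65 to 4.96. SERPINH1 was 214 in NP18 replicate 4, against 64.3 to 75.9, and 40.5 in P18 replicate 4, against 51.7 to 53.0.

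The pregnancy effect of day 18 minus that of day 15 passed limma's test for 4 members. It was -2.07 on the log2 scale for ADAM9 (adjusted p = 0.0297), -1.85 for the human TIMP3 probe (adjusted p = 0.0377), 1.45 for the human MMP2 probe (adjusted p = 0.0335) and 1.55 for MMP24 (adjusted p = 0.02), whose day-18 arrays were not well above background.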

How the results depend on the processing

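Counts of called members are given in the order day 15, day 18, difference of the days, non-pregnant and pregnant cows, where the counts reported are 1, 5, 4, 10 and 9. With scan day as a random block they were 0 in all 5 (limma consensus correlation 0.336), where 0, 0.372, 0, 0.41 and 0% of all probes were called. With the slide as a block they were 0, 2, 2, 6 and 8, and with only the 2 groups compared 0, 2, 2 and 10 without a value for the difference. Array weights gave 10, 8, 12, 11 and 11, normexp 2, 5, 10, 7 and 7, quantile normalization 2, 7, 4, 8 and 11, and probes well above background in all 15 arrays 2, 6, 2, 8 and 7. The methods' t-test at the threshold gave 5, 8, 9 and 10 for the comparisons of 2 groups, and after adjustment 0, 1, 1 and 6. Leaving out 1 array gave 0 to 3, 0 to 11, 0 to 6, 4 to 13 and 2 to 10. Over all probes it gave 0.0304 to 2.61, 3.25 to 7.92, 0.448 to 4.17, 4.68 to 11.9 and 5.6 to 13.1%. The lowest counts came without P18 replicate 3 on day 18, P15 replicate 1 for the difference, NP18 replicate 4 in non-pregnant and P15 replicate 1 or 3 in pregnant cows. The highest came without NP15 replicate 3 on day 15, NP18 replicate 1 on day 18 and in non-pregnant cows, and P18 replicate 1 in pregnant cows. The calls over all probes moved too, with array weights to 7.63, 10.8, 11.4, 12.9 and 18.6% and with normexp to 9.98% for the difference. The cause was not tested.

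The replicate numbers did not pair the cows (correlations of deviations from -0.259 to 0.304). A replicate block gave 0, 1, 0, 7 and 5, against 0.0608, 4.66, 1.46, 6.29 and 8.7% of all probes.

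Over 30 pairs of member and comparison, 283 of 850 alternative values lost a call and 849 kept their direction. Fits without filter or fold limit, of only the 2 groups, by t-test or with the 15-array filter keep the same log2 fold change. Their direction could not turn. Nor could it turn without 1 array where the 2 groups do not overlap. MMP16 between days in non-pregnant cows turned to -0.13 with normexp, on signals near background.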
